A study of Mus musculus with 4 samples.

Results

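Tendon spots were described in a spatial transcriptome of injured muscle, 7 days after injury. They were 135 capture spots of the day 7 section, out of 3032 spots in that section and 10835 in the series. Each was chosen by its RNA. Among the 2948 spots with at least 2000 UMIs (unique molecular identifiers, which count captured RNA molecules), 266 were left out because their share of Col2a1, Acan and Col9a1, the major matrix genes of cartilage, lay at or above the 91st percentile. The remaining 2682 spots were ranked by the summed share of Tnmd, Scx, Mkx and Thbs4, and those at or above the 95th percentile were the tendon spots. The other 2547 spots are called the remaining spots. A spot covers a small area that can hold several cells of different kinds, so these are tendon-scoring areas and not tendon cells.

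The series holds 1 section of tibial muscle per time point, before injury (day 0) and on days 1, 3 and 7 after it. All 4 groups were Nse-Bmp4 mice on C57BL/6, aged 6 to 8 weeks. The transgene, which the uninjured group carried too, places a murine Bmp4 cDNA behind the rat neuron-specific enolase promoter, and these mice are used as a model of bone formation in soft tissue. Injury was by cardiotoxin according to the methods of the study. The labels state that 3 tibial muscles were mixed per group, and how they map to a section was not settled. There was no second section of any day, so the spread between animals is unknown and no test was made. Every interval is an exact 95% interval for counting error only, and spots of a section are not replicates. In a spot, fewer cells of a type and less RNA per cell cannot be told apart.

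Tendon joins muscle to bone through parallel fibres of type I collagen, which are spaced and bound by small leucine-rich proteoglycans and thrombospondins. Its cells are specified by the transcription factors Scx (scleraxis) and Mkx (mohawk), and mature tendon cells carry tenomodulin, the membrane protein that Tnmd encodes. Thbs4 encodes thrombospondin-4, a matrix protein of tendon and of the muscle ends that attach to it. Tendon and cartilage share much of this matrix, and Cnmd (chondromodulin), the closest relative of Tnmd, is its counterpart in cartilage. Bone that forms in soft tissue often passes through a cartilage stage.

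The promoter sequences of both main markers and of Cnmd are printed to set the tendon gene beside its cartilage relative. They run from 250 bases before to 50 bases after the gene start, and come from RefSeq on GRCm38.p6. Scx and Comp had no entry in the table used. Capitals mark CANNTG, the E-box that basic helix-loop-helix factors such as Scx can bind. The motif reads the same on both strands.
Tnmd, chrX:133850758-133851057, plus strand: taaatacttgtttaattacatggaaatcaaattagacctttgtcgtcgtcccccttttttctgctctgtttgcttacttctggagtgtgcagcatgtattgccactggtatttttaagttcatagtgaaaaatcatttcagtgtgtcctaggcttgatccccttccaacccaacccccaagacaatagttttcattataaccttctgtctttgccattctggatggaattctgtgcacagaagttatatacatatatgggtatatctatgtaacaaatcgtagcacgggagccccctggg
Thbs4, chr13:92794769-92795068, minus strand: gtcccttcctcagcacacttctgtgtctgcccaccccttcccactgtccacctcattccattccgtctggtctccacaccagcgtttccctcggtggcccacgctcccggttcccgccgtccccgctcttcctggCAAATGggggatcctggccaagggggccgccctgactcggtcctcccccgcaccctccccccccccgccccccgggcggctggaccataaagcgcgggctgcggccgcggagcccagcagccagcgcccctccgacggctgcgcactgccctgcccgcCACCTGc
Cnmd, chr14:79662134-79662433, minus strand: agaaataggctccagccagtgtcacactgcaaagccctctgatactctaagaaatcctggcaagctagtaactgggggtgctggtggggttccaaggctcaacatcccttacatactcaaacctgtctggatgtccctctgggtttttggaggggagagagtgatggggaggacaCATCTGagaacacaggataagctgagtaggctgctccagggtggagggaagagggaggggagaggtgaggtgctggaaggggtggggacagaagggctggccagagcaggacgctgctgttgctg
The Tnmd window held 0 matches, the Thbs4 window 2 (at bases 136 to 141 and 294 to 299 of the printed run) and the Cnmd window 1 (at bases 176 to 181). Of all 32851 promoter windows of 300 bases, 72.3% held at least 1, so a match is common and describes letters, not binding. The windows differed in base composition, with 40% G and C for Tnmd, 56% for Cnmd and 72% for Thbs4, against a median of 52.7% over all windows.

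Thbs4 carried most of the marker score. It gave 4209 of the 4924 marker UMIs in the tendon spots (85.5%), and it was the most abundant of the 4 markers in all 135 spots. Tnmd gave 477 UMIs (9.69%), Scx 194 (3.94%) and Mkx 44 (0.894%). Tnmd was seen in 90 tendon spots, Scx in 78 and Mkx in 30, and the lowest, median and highest level of Tnmd over the spots were 0, 135 and 1360.3 CPM (UMIs of a gene per 1000000 UMIs of the spot or set). For Thbs4 they were 766, 1636 and 6617 CPM. All 4 markers were found together in 21 spots, 3 in 45, 2 in 45, and Thbs4 alone in 24.

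**Figure D1:**
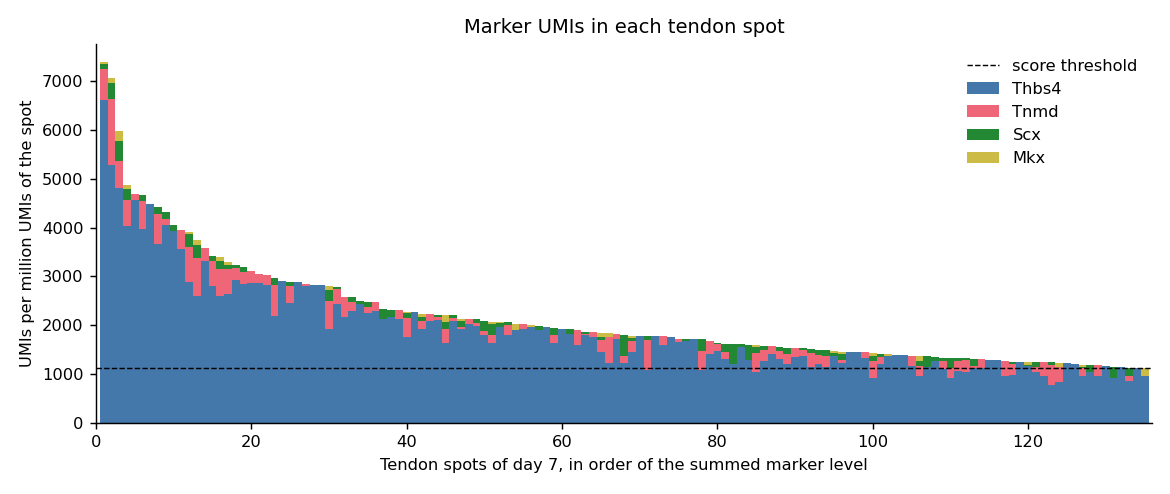
Stacked levels of Thbs4, Tnmd, Scx and Mkx in CPM in each of the 135 tendon spots of day 7, in order of their sum, with the score threshold as a dashed line. Thbs4 is the tallest part of every bar, and a few spots reach several times the threshold.

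These values chose the spots, so they are a description. The threshold was 1118.2 CPM. The lowest tendon spots scored 1118.4, 1119.98 and 1129.6 CPM and the highest of the remaining spots 1114.8, 1109.6 and 1107.4 CPM, so the set has no gap at its edge. The tendon spots had a median score of 1793 CPM and a maximum of 7396 CPM, and the remaining spots a median of 172 CPM with 570 spots at 0. Summed over spots, Tnmd stood at 209.6 CPM (191 to 229) against 16.3 in the remaining spots, and Scx at 85.3 (73.7 to 98.1) against 19.8. Leaving Thbs4 out of the score kept 66 of the 135 spots. Leaving out Tnmd, Scx or Mkx kept 127, 132 and 134.

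The 4 sections held 16777832 to 56113066 UMIs, with a median of 6322 to 21029 UMIs per spot, day 1 being the shallowest. In all, 1341 spot barcodes occurred in every section, which the barcode design of such slides gives without shared tissue. The tendon spots of day 7 held 2275569 UMIs, with a median of 14987 per spot against 12427 in the remaining spots. Mitochondrial genes took 7.91% of their UMIs against 12.7%. The adult myofibre list (10 genes of fast muscle fibres) took 9.50% against 15.4%. With that lower muscle share, the median of all 9422 genes compared was 1.23-fold higher in the tendon spots (0.30 on the log2 scale), and ratios below are read against that. Genes were compared where they reached 10 CPM in either set and 50 UMIs over both.

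Other genes of tendon were high in the tendon spots beside the markers that chose them. Of the list of 9 other tendon genes, 7 passed the filter on low values, and all 7 were at least 2-fold higher than in the remaining spots. Over all genes compared 6.47% were at least 2-fold higher and 0.679% at least 2-fold lower (610 and 64 genes). The choice of spots by tendon markers used this same contrast, so the count of 7 is not independent of it. Of these 7, Kera, Cilp2, Chad and Angptl7 lay under the CPM limit of the filter in the remaining spots. They passed it only through the tendon spots. A gene that passes in that way is higher in the tendon spots by construction, so the count also depends on the filter. The list's summed level was 2493 CPM against 583, a ratio of 4.28 (4.15 to 4.4). The list's ratio was from 3.22 to 5.06 under the other settings tried, except without leaving out cartilage spots, where it was 2.98.

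Among genes with at least 50 CPM in either set, the largest ratios were those of Kera, Cilp2, Chad and Angptl7. Kera, which encodes the proteoglycan keratocan, stood at 65.5 CPM in the tendon spots and 3.17 in the remaining spots, a ratio of 20.7 (16.1 to 26.6). Cilp2, a matrix protein of cartilage and tendon, had 67.2 against 3.28 CPM, a ratio of 20.5 (16.0 to 26.3). Chad, whose product chondroadherin binds collagen, had 77.8 against 4.03 CPM, a ratio of 19.3 (15.4 to 24.2). All of these were rare RNAs in the remaining spots. Angptl7, a secreted angiopoietin-like protein, had 127 against 6.62 CPM, a ratio of 19.2 (16.1 to 22.9). Next came Col22a1, a collagen of tissue junctions that includes the muscle-tendon junction, at 94.0 against 6.90 CPM, a ratio of 13.6 (11.3 to 16.4). Fmod (fibromodulin, which controls collagen fibril width) stood at 1183 against 197 CPM, a ratio of 6.01 (5.75 to 6.29). Comp and Cilp, matrix genes that tendon shares with cartilage, were 2.15-fold and 3.17-fold higher.

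The rare tendon genes were unevenly spread over the tendon spots. Angptl7 had at least 1 UMI in 60 of 135 tendon spots (44.4%) and 179 of 2547 remaining spots (7.03%), and the median depths of both sets are given above. Kera had at least 1 UMI in 46 of 135 tendon spots (34.1%) and 92 of 2547 remaining spots (3.61%). After every spot was thinned to 2000 UMIs the shares for Angptl7 were 18.5% and 1.37%, and those for Kera 8.15% and 0.707%. The difference between the sets was thus also present at equal depth. The 13 richest tendon spots held 60.4% of the Kera UMIs, 56.7% of the Angptl7 UMIs and 65.0% of the Col22a1 UMIs, against 28.6% of the Thbs4 UMIs. All 5 of Angptl7, Kera, Chad, Cilp2 and Col22a1, a group formed after their values were seen, were present together in 22 tendon spots and in 2 of the 2547 remaining spots. None of the 5 was seen in 50 tendon spots (37.0%), against 2073 remaining spots (81.4%).

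**Figure D2:**
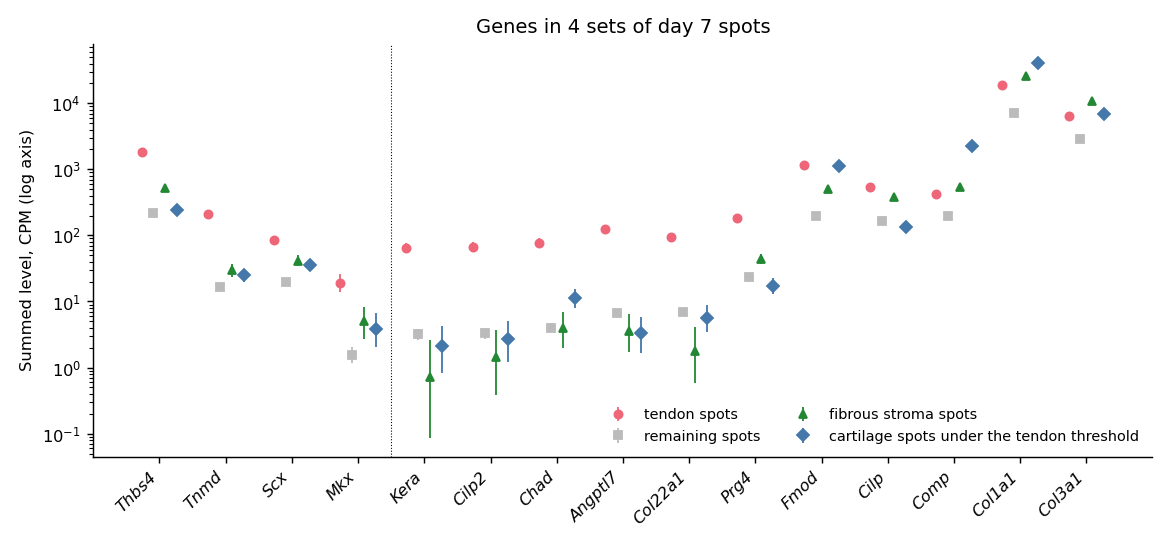
Summed level of 15 genes in CPM (log axis) in the tendon, remaining, fibrous stroma and cartilage spots of day 7, with exact 95% Poisson intervals for counting error. The 4 genes left of the dotted line chose the tendon spots. Kera, Cilp2, Chad, Angptl7 and Col22a1 lie far above all other sets in the tendon spots, while Fmod, Comp and Col1a1 reach the same or higher levels in cartilage spots.

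The collagens that make up tendon fibres were also higher, though less so than the tendon genes. All 12 genes of the collagen list were higher and 10 were at least 2-fold higher, with a median log2 ratio of 1.16 against 0.30 for all genes. Col1a1 stood at 18732 against 7123 CPM, a ratio of 2.63 (2.60 to 2.66), and Col3a1, the collagen of young and repairing tissue, at 6527 against 2872, a ratio of 2.27 (2.23 to 2.31). Col12a1 and Col14a1, which sit on the fibril surface, were 2.49-fold and 2.20-fold higher. Together the 12 collagen genes took 4.61% of the UMIs of the tendon spots and 1.83% of those of the remaining spots.

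Genes that mature and space collagen were also higher. Counts past 2-fold here and in the collagen list are read against 6.47% of all genes compared. Of 12 collagen maturation genes, 8 were at least 2-fold higher, led by Lox, the enzyme that crosslinks collagen and elastin, at 372 against 82.2 CPM, a ratio of 4.53 (4.19 to 4.89). Serpinh1, the collagen chaperone, had a ratio of 2.24 (2.15 to 2.34). Of 7 small leucine-rich proteoglycan genes, 5 were at least 2-fold higher, with Aspn (asporin) at 3.68-fold, Ogn (osteoglycin) at 2.73-fold and Bgn (biglycan) at 2.26-fold, while Dcn (decorin) was 1.64-fold higher. Of 12 wound matrix and contractile genes, 10 were at least 2-fold higher. Ccn2, a matricellular gene known as a target of TGF-beta and of mechanical load, had 417 against 72.3 CPM, a ratio of 5.77 (5.35 to 6.21). Postn (periostin) was 3.37-fold higher, Fn1 (fibronectin) 3.04-fold and Tnc (tenascin-C) 2.74-fold. The contractile genes Acta2 and Tagln, markers of myofibroblasts and smooth muscle, were not part of this pattern, with ratios of 0.901 and 0.969.

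Among genes that break down or protect matrix, 5 of the 7 tested were at least 2-fold higher, against 6.47% of all genes compared. Mmp13, a collagenase, had 81 UMIs in the tendon spots, 35.6 against 2.5 CPM, a ratio of 14.2 (10.4 to 19.4). It passed the filter only through the tendon spots, so it is higher there by construction. Mmp2 (gelatinase A) had a ratio of 2.62 (2.51 to 2.73) and its inhibitor Timp1 one of 3.88 (3.53 to 4.24), while Mmp3, at 1.06-fold, lay below the median of all genes. Prg4, which encodes lubricin of joint surfaces and tendon sheaths, had 181 against 23.4 CPM, a ratio of 7.72 (6.85 to 8.70), and was the leading gene of the tendon sheath and synovial list. In that list Has1, a hyaluronan synthase, was 4.86-fold higher, and Clic5 and Cd55, both of the synovial lining, were at 0.681 and 0.657. Also among the leading genes were Chodl, the lectin chondrolectin (5.47-fold), Ptgis, prostacyclin synthase (5.05-fold) and Pcsk5, a proprotein convertase (4.85-fold).

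Signalling genes showed smaller differences. In the TGF-beta list, the pathway that drives matrix production in tendon repair, all 13 tested genes had ratios above 1 and 5 were at least 2-fold higher. The list's median log2 ratio was 0.88 against 0.30 for all genes, of which 6.47% were at least 2-fold higher. The ligand Tgfb3 stood at 149 against 57.9 CPM, a ratio of 2.57 (2.28 to 2.88), while Tgfb1 was 1.84-fold and Tgfb2 1.27-fold higher. The receptor Tgfbr2 was 1.83-fold higher and Tgfbr1 1.11-fold, below the median of all genes. The latent TGF-beta binding protein Ltbp2 was 3.06-fold higher and the target Tgfbi 2.68-fold.

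In the BMP and GDF list, the signals that direct cartilage and bone formation, 10 of 18 genes passed the filter. Of these 10, 4 were at least 2-fold higher, against 6.47% of all genes compared. The 4 were the targets Id2 (2.40-fold), Id3 (2.10-fold) and Smad6 (2.56-fold), and the antagonist Chrdl1 (2.24-fold). Id1, the usual target gene of BMP signals, was 1.37-fold higher. Bmp4, the gene the transgene encodes, had 26 UMIs in the tendon spots, 11.4 CPM (7.46 to 16.7) against 9.70, a ratio of 1.18 (0.758 to 1.76), and the counts do not say whether a read came from the transgene. Gdf6, a growth factor of joint and tendon development, had 12 UMIs, under the filter, and a ratio of 9.48 (4.23 to 20.4). In the hedgehog list, the receptor-associated gene Smo was 2.43-fold higher and Ptch1 and Gli1, its response genes, had 23 and 16 UMIs with ratios of 1.09 (0.685 to 1.67) and 1.21 (0.679 to 2.01).

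Muscle, blood and fat RNA was lower in the tendon spots. All 10 adult myofibre genes had ratios below 1 and none was 2-fold lower, with a summed ratio of 0.616 (0.614 to 0.619). Their share per tendon spot still ran from 1.40% to 18.8% of UMIs, so muscle was present in the tendon spots. The 3 tested adipocyte genes were all at least 2-fold lower, with a summed ratio of 0.461 (0.403 to 0.524), as were all 4 haemoglobin genes, at 0.343 (0.314 to 0.374). Other genes with small ratios were Ccl21a, a chemokine of lymphatic vessels (0.348), Actc1, cardiac alpha-actin, which young muscle fibres also use (0.37), the muscle phosphatase gene Dupd1 (0.416) and Fsd2 (0.428).

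Genes of the muscle-tendon junction split. Col22a1 was high, as given above, but the list of 6 had a summed ratio of 1.01 (0.968 to 1.06), with Itga7 (the integrin chain that anchors muscle to laminin) at 0.864, Nrap at 0.781 and Xirp2 at 1.04. Regenerating muscle genes had a summed ratio of 0.964 (0.92 to 1.01). Endothelial genes had one of 0.985 (0.924 to 1.05) and pericyte and smooth muscle genes one of 0.892 (0.837 to 0.948). These lists lay below the median of all genes, 1.23.

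Macrophage and cell cycle RNA was modestly higher than in the remaining spots. Of 12 macrophage genes none was at least 2-fold higher, and the summed level was 3197 against 2259 CPM, a ratio of 1.42 (1.38 to 1.45). Over spots the middle of the tendon set ran from 1725 to 3809.7 CPM (quartiles) and that of the remaining spots from 702 to 2224 CPM. None of the defining macrophage genes was at 0, with Cd68 at 76.5 CPM and Adgre1 at 54.5, and their part in the other results was not tested. The cell cycle list was 1.78 (1.65 to 1.91) times as high, with 6 of 15 tested genes at least 2-fold higher, among them Mki67 (2.04-fold) and Cdk1 (2.18-fold). Over all genes compared, 6.47% were at least 2-fold higher. Neutrophil genes and T and NK cell genes had 17 and 43 UMIs in all the tendon spots, and none passed the filter. Of the osteoclast list, Ctsk, a collagen-degrading protease that fibroblasts also make, was 2.56-fold higher and Acp5 was at 0.708.

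Summed over spots, cartilage and bone RNA in the tendon spots was near the level of the remaining spots once cartilage areas were left out. The summed ratio was 1.32 (1.25 to 1.39) for other cartilage genes, 0 of 11 at least 2-fold higher, and 1.17 (1.07 to 1.29) for bone genes, 0 of 4. With TMM factors, which set the middle of all genes to be equal, these ratios were 1.09 and 0.968. With no spot left out as cartilage they were 0.732 and 0.723. Over all genes compared, 6.47% were at least 2-fold higher, so counts of 0 among 11 and 4 genes say little. The medians over single spots lay further apart. They were 535 CPM in the tendon spots and 287 in the remaining spots for other cartilage genes, and 131 and 82.1 CPM for bone genes. Cnmd, the cartilage relative of Tnmd, had 34 UMIs in the tendon spots, 14.9 CPM against 10.1, and Sox9, the transcription factor of cartilage that tendon-to-bone attachments also use, had 80.0 against 49.1 CPM, a ratio of 1.63 (1.39 to 1.90). The cartilage genes of the rule reached at most 2212 CPM in a tendon spot, under the limit of 2471 CPM set by the rule, and were at 0 in 9 of the 135.

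Scaling decided how the counts of genes divide. With CPM, 90.5% of the genes past 2-fold were higher in the tendon spots. With TMM factors 236 genes were higher and 204 lower (53.6% higher), and with a total that leaves out mitochondrial, haemoglobin and myofibre genes 333 were higher and 175 lower (65.6%). TMM factors lowered every ratio of this comparison by 0.28 on the log2 scale, which put Bmp4, Mmp3, Tgfbr1, Ptch1, Gli1, Xirp2 and the muscle-tendon junction list below 1. Genes named above that went under 2-fold with TMM factors included Id2, Id3, Chrdl1, Mki67 and Cdk1. The lists of other tendon genes, collagens, proteoglycans and wound matrix stayed above 1 under both scalings.

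**Figure D3:**
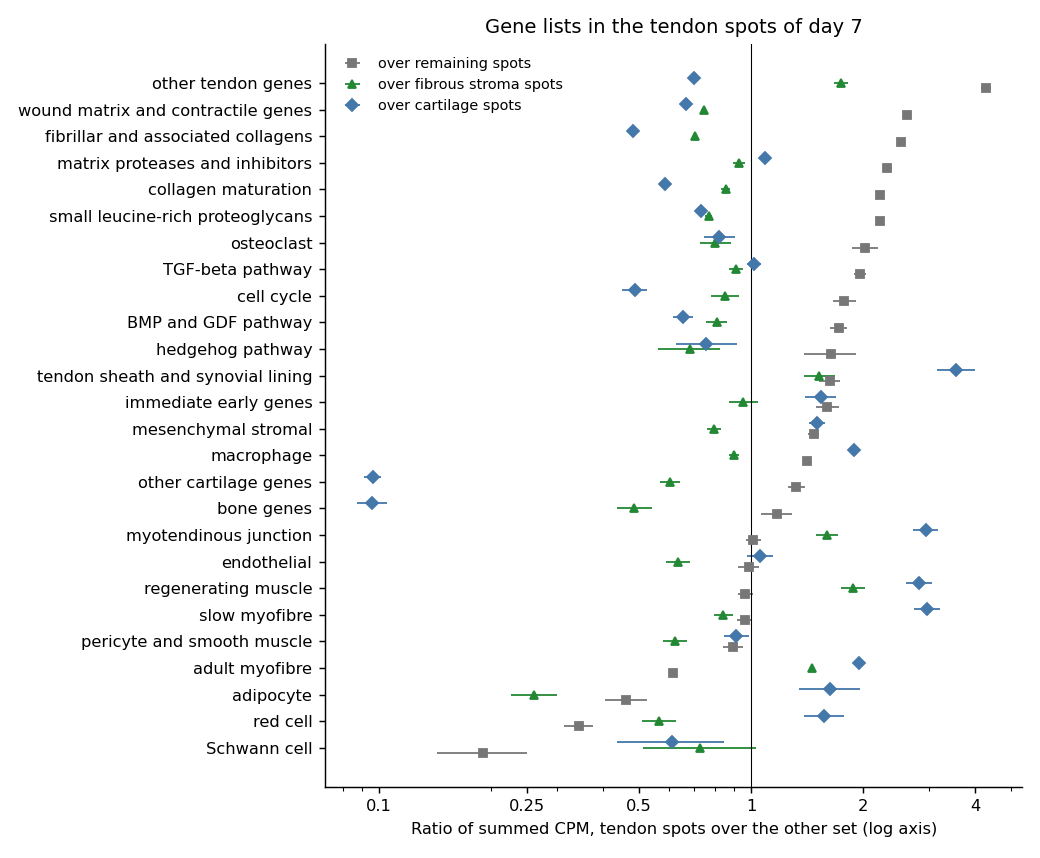
Ratio of the summed CPM of each gene list (log axis) in the tendon spots of day 7 over the remaining, the fibrous stroma and the cartilage spots, with exact 95% intervals for counting error. Other tendon genes have the highest ratio over the remaining spots, at 4.28, and cartilage and bone genes the lowest over cartilage spots, near 0.096.

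As a list, the other tendon genes were higher in the tendon spots than in fibrous stroma, with a summed ratio of 1.74 (1.67 to 1.81). The 128 fibrous stroma spots were the top 5% of the remaining spots by their share of Col3a1, Postn and Lum. Their median depth was 21033.5 UMIs. They were chosen for matrix genes and all lay under the tendon threshold. Higher matrix RNA and fewer tendon genes in them are therefore not independent of the choice. Of the 7 other tendon genes tested, 5 were at least 2-fold higher in the tendon spots, where 0.612% of all 9479 genes compared were at least 2-fold higher and 1.6% at least 2-fold lower (58 and 152 genes, or 93 and 95 with TMM factors and 80 and 108 without mitochondrial, haemoglobin and myofibre genes in the total). Kera had 149 UMIs in the tendon spots and 2 in the stroma spots, a ratio of 91.6 (24.9 to 763). Col22a1 had 214 and 5 UMIs, Cilp2 153 and 4, Angptl7 289 and 10, and Chad 177 and 11. These 5 had the largest ratios among genes with at least 50 CPM in either set, from 19.8 to 91.6. All 5 were under 10 CPM in the stroma spots, so they passed the filter only through the tendon spots.

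Most matrix genes were lower in the tendon spots than in this stroma, which was chosen for such genes. All 11 collagen genes tested had ratios below 1, with a summed ratio of 0.708 (0.702 to 0.713), and Col1a1 had 18732 against 26336 CPM. Comp was 0.808 of the stroma level and Tnc 0.574. Genes that were higher in the tendon spots than in stroma included Fmod (2.34-fold), Ccn2 (2.70-fold), Mgp, an inhibitor of calcification (2.34-fold), and Mmp13 (7.66-fold). Of these, Mmp13 passed the filter only through the tendon spots. Muscle was also higher, with an adult myofibre ratio of 1.46 (1.45 to 1.47) and a regenerating muscle ratio of 1.88 (1.75 to 2.02). Genes with the smallest ratios were Hp, haptoglobin (0.241), Ccl21a (0.27), Cfd, the adipocyte protein adipsin (0.275), and the interferon-induced Isg15 (0.291), and the adipocyte list was at 0.261 (0.226 to 0.3).

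Cartilage spots and tendon spots separated sharply on some shared matrix genes and not on others. The 256 spots left out as cartilage and under the tendon threshold were compared. Their cartilage genes of the rule are higher by construction. The contrast in other cartilage genes is not independent of that choice. Some of them, such as Col10a1 and Ihh at 3.96 and 5.71 CPM in the tendon spots, passed the filter only through the cartilage spots. Over 9740 genes, 4.24% were at least 2-fold higher and 8.08% at least 2-fold lower in the tendon spots (413 and 787 genes, or 639 and 539 with TMM factors and 640 and 538 with the reduced total). Of the 16 other cartilage genes, 15 were at least 2-fold lower, with a summed ratio of 0.0961 (0.0911 to 0.101), and Cnmd was at 0.0849 (0.0582 to 0.12). Summed, the other tendon genes were lower in the tendon spots than in these cartilage spots, at 0.702 (0.680 to 0.725). Comp, which tendon shares with cartilage, had 429.8 CPM in the tendon spots against 2275 in cartilage. Fmod did not separate them, at 1183 against 1119 CPM, a ratio of 1.06 (1.00 to 1.11). Angptl7 (289 and 11 UMIs), Kera (149 and 7 UMIs) and Cilp2 (153 and 9 UMIs) had the largest ratios among genes with at least 50 CPM in either set, at of 38.6 (21.3 to 78.2), 31.3 (14.8 to 79.2) and 25 (12.8 to 55.7).

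Scx and Tnmd, which chose the tendon spots, were not absent from cartilage spots. Scx stood at 36.2 CPM there, above the 19.8 of the remaining spots, and Tnmd at 24.8 against 16.3. Of all 266 cartilage spots, 10 (3.76%) reached the tendon threshold. In those 10, with 127996 UMIs, Thbs4 stood at 1578 CPM and Comp at 1469, but Kera, Angptl7 and Col22a1 had 0 UMIs each (exact interval 0 to 28.8 CPM). Cell cycle genes were lower in the tendon spots than in cartilage, at 0.486 (0.449 to 0.525), and macrophage genes higher, at 1.89 (1.82 to 1.96).

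Differences among the tendon spots were looked at in 2 chosen ways. The first was muscle against collagen. Across the 135 spots, thinned to 2000 UMIs in 20 draws, Spearman's rho between the adult myofibre and the collagen list was -0.79 (-0.82 to -0.78 over the draws). Both lists are large shares of the same total, so a high value of one lowers the other, and rho is a description without a p-value. The marker score and the other tendon genes had a rho of 0.23 (0.09 to 0.40 over the draws), and Tnmd and Thbs4 one of 0.08 (-0.01 to 0.24 over the draws). In sparse counts such weak values are no finding.

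**Figure D4:**
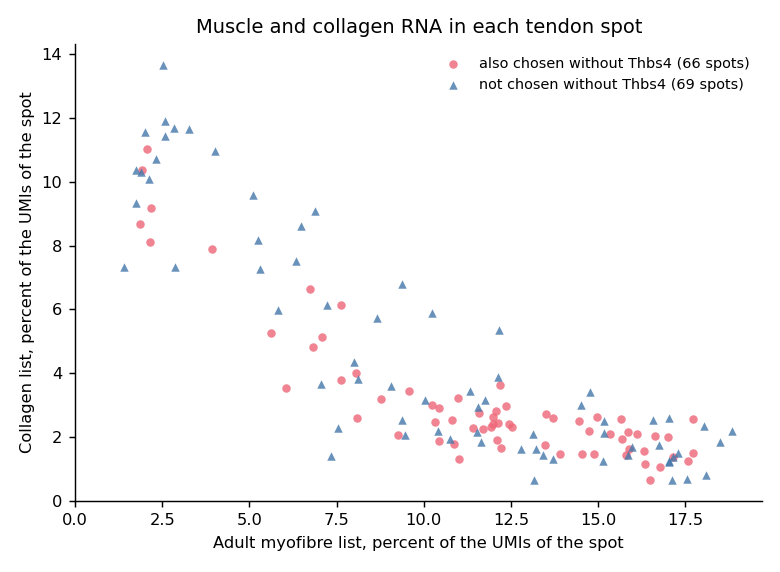
Share of UMIs from the adult myofibre list and from the collagen list in each of the 135 tendon spots of day 7, with the 66 spots also chosen without Thbs4 and the 69 spots that were not as separate symbols. Spots run along a curve from collagen-rich with little muscle to muscle-rich with little collagen, and spots of both kinds occur along it.

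The 68 tendon spots at or below the median myofibre share (11.7% of UMIs) were compared with the 67 above it. Collagen RNA was 3.08-fold and Postn 5.67-fold higher in the spots poor in muscle, which is the contrast the split makes. The other tendon genes split. Summed, they stood at 2401 CPM in the spots poor in muscle and 2629.5 in those rich in it, a ratio of 0.913 (0.866 to 0.963). Cilp and Comp were higher in the spots poor in muscle, with ratios of 1.97 (1.73 to 2.25) and 1.33 (1.17 to 1.53). The rarer genes were lower there, with Cilp2 at 0.489 (0.349 to 0.681) and Kera at 0.727 (0.52 to 1.02), whose interval includes 1. Col22a1, of the muscle-tendon junction list, had 42.8 CPM in the spots poor in muscle and 169 in those rich in it, a ratio of 0.253 (0.184 to 0.344). Chad had 47.2 and 123 CPM, a ratio of 0.385 (0.279 to 0.528), and Angptl7 86.4 and 187 CPM, a ratio of 0.462 (0.362 to 0.588). Tnmd was at 0.665 (0.554 to 0.8) and Fmod at 0.704 (0.652 to 0.76), while Thbs4 was close to equal at 1.10. The split compares shares of a common total, and TMM factors lowered each of these ratios by 0.34 on the log2 scale, which puts Thbs4 below 1.

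The second way was to ask whether a spot would have been chosen without Thbs4. The 66 spots that would held 353 CPM of Tnmd and 125 of Scx, and the other 69 held 41.9 and 39.0, a difference that follows from the choice. Thbs4 itself was alike, at 1937 and 1747 CPM. Genes outside the rule were higher in the 66 as well. Kera had 102 against 22.9 CPM, a ratio of 4.46 (2.87 to 7.23), Cilp2 a ratio of 4.39 (2.84 to 7.03), Angptl7 of 3.34 (2.5 to 4.53), Fmod of 2.17 (1.99 to 2.36) and Mmp13 of 5.45 (2.87 to 11.4). The 69 spots still had more of these genes than the remaining spots, with 22.9 against 3.17 CPM for Kera and 56.2 against 6.62 for Angptl7.

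The 69 spots that depended on Thbs4 held more collagen and cell cycle RNA. Sfrp2, a secreted Wnt modulator of fibroblasts, had 1598 CPM in them and 228 in the 66, so the 66 were at 0.142 (0.125 to 0.162) of that level. Ccn3, a matricellular gene, was at 0.263 (0.209 to 0.328), Ptx3, a secreted pattern-recognition protein, at 0.231 (0.153 to 0.34), and Cfd at 0.137 (0.0894 to 0.204). The collagen list was at 0.609 (0.602 to 0.617) and the cell cycle list at 0.491 (0.426 to 0.566). Muscle was higher in the 66, with an adult myofibre ratio of 1.35 (1.33 to 1.36), and so were Myod1, the muscle regulatory factor (2.60), and the muscle gene Igfn1 (2.84). The median depth was 18224.5 UMIs in the 66 spots and 11315 in the 69, and its part was not tested.

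Over the whole section, the genes whose pattern was most like the marker score were general matrix genes. Across all 2948 spots with at least 2000 UMIs, thinned to 2000, and among 4811 genes seen in at least 5% of them, the 10 highest values of Spearman's rho were for Col1a2 (0.28), Col1a1 (0.27), Postn (0.25), Col3a1 (0.24), Sparc (0.24), Bgn (0.22), Fn1 (0.21), Col5a2 (0.21), Mgp (0.20) and Fmod (0.20). The lowest was for Myh4, the main fast myosin (-0.24). All were weak, spots share a section and a common total, and rare genes such as Kera fell under that limit.

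Spots chosen by the same 4 markers could be found in the other sections, none of which the day 7 rule used. The top 5% of spots by the score numbered 105, 108 and 151 spots on days 0, 1 and 3, with thresholds of 252, 1266 and 1569 CPM against 1118 CPM at day 7. No spot of those sections reached the cartilage share of day 7. At the day 7 threshold, 18 spots (0.861%) would pass on day 0, 115 (5.34%) on day 1 and 281 (9.30%) on day 3, against 135 (5.03%) of day 7. Thbs4 in these tendon spots stood at 649, 3156, 2841 and 1849.7 CPM on days 0, 1, 3 and 7, and Tnmd at 92.2, 53.9, 86.4 and 209.6 CPM on days 0, 1, 3 and 7. Thbs4 was thus highest at days 1 and 3 and Tnmd at day 7, both in spots chosen for them. With 1 section per day a difference between days cannot be told apart from a difference between sections or in how much tendon each section cut through.

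The leading tendon genes of day 7 were also high in the tendon spots of every other section. Over the remaining spots of its own section, Kera was 45.8, 34.3, 18.0 and 20.7 times as high on days 0, 1, 3 and 7, from 38, 17, 65 and 149 UMIs. Cilp2 was 42.6, 21.8, 13 and 20.5 times as high on days 0, 1, 3 and 7. Angptl7 was 13.1, 28.5, 16.0 and 19.2 times as high on days 0, 1, 3 and 7. Col22a1 was 35.3, 17.4, 10.7 and 13.6 times as high on days 0, 1, 3 and 7, so all 4 of these rare genes marked the tendon spots in uninjured muscle and at each day. Fmod was 31.3, 17.8, 12.8 and 6.01 times as high on days 0, 1, 3 and 7 and Comp 26.1, 17.9, 9.05 and 2.15 times as high on days 0, 1, 3 and 7. These 2 had their smallest ratio at day 7, when their level in the remaining spots was 197 and 200.1 CPM against 6.21 and 0.433 CPM at day 0. Scx was 4.25, 1.54, 1.45 and 4.31 times as high on days 0, 1, 3 and 7, and at day 3 the remaining spots held 77.6 CPM of it, against 112 in the tendon spots.

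**Figure D5:**
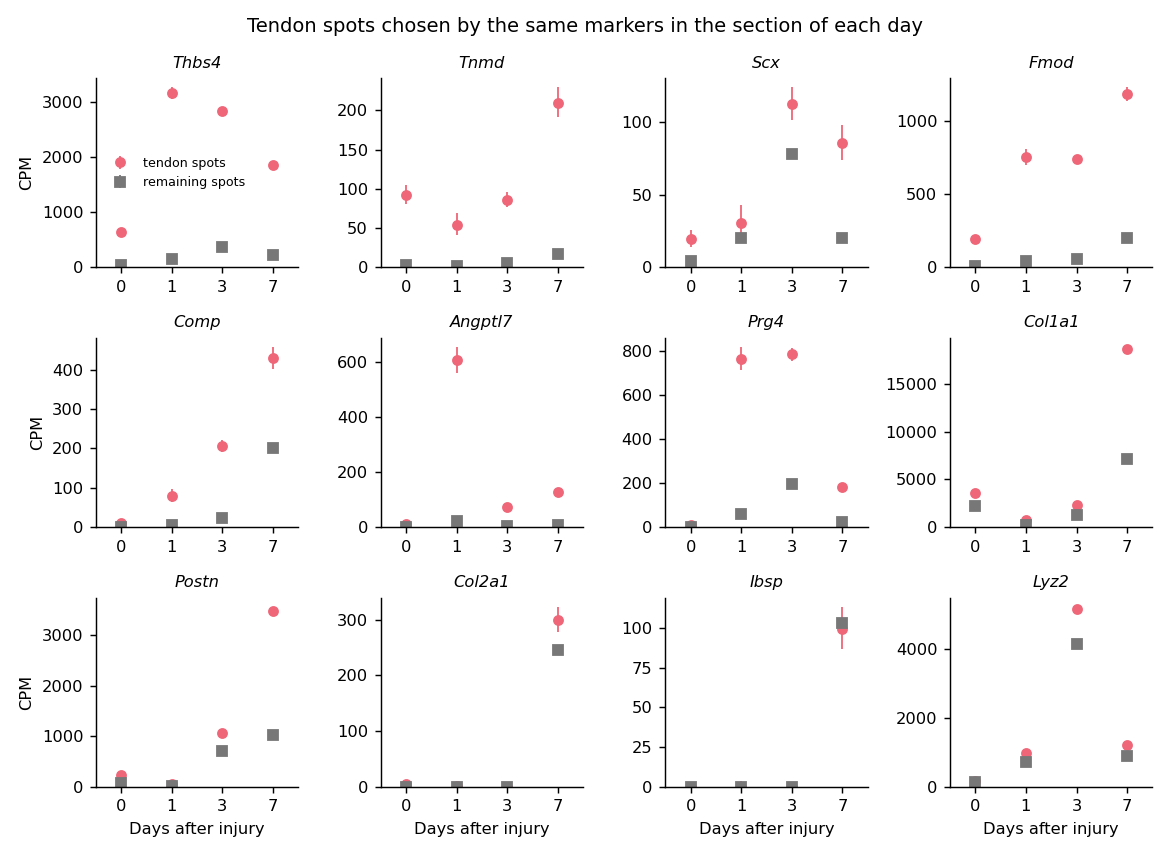
Summed level in CPM of 12 genes in the tendon spots and in the remaining spots of each section (0, 1, 3 and 7 days after injury), with exact 95% Poisson intervals for counting error and 1 section per day. Tnmd, Fmod, Comp, Col1a1 and Postn are highest in the tendon spots of day 7, Prg4 at days 1 and 3, Angptl7 at day 1, and Col2a1 and Ibsp are seen at day 7.

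Levels of single tendon genes differed between the sections. Angptl7 stood at 10.4, 605, 73.2 and 127 CPM on days 0, 1, 3 and 7, highest at day 1. Prg4 stood at 9.56, 762, 783 and 181 CPM on days 0, 1, 3 and 7, high at days 1 and 3. Fmod stood at 194, 752, 736 and 1183 CPM on days 0, 1, 3 and 7, and Comp at 11.3, 79.0, 206 and 429.8 CPM on days 0, 1, 3 and 7, both highest at day 7. The other tendon genes summed to 768, 1876, 1748 and 2493 CPM at days 0, 1, 3 and 7. The day 7 level was 3.25 (3.08 to 3.43) times that of day 0, 1.33 (1.26 to 1.40) that of day 1 and 1.43 (1.38 to 1.48) that of day 3, and the ratio to day 1 turned to 0.964 with TMM factors.

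Matrix RNA in the tendon spots was highest at day 7. Col1a1 stood at 3594, 756, 2322 and 18732 CPM on days 0, 1, 3 and 7, lowest at day 1. Postn stood at 233, 59.5, 1055 and 3481 CPM on days 0, 1, 3 and 7. Against the tendon spots of day 3, 10.8% of 9451 genes compared were at least 2-fold higher at day 7 and 7.58% at least 2-fold lower, 11 of 12 collagen genes were at least 2-fold higher and the list was 4.78 (4.72 to 4.84) times as high. The remaining spots differed in the same direction, with the collagen list 3.16 (3.14 to 3.17) times as high at day 7 as at day 3. The wound matrix and contractile list was 1.61 (1.60 to 1.62) times as high in them, against 2.73 (2.68 to 2.78) in the tendon spots. Tnn (tenascin-N, a tenascin of tendon and bone surfaces) had 1, 0, 14 and 609 UMIs at days 0, 1, 3 and 7. Ccn3 had 196 CPM at day 7 and 6.71 at day 3, and Ptn, the growth factor pleiotrophin, 214 and 10.6.

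Cartilage and bone genes appeared in the tendon spots at day 7 even though the richest cartilage areas were left out. Ibsp, which encodes bone sialoprotein, had 226 UMIs at day 7 and 0 at each of days 0, 1 and 3, so it was at least 118-fold higher than at day 3, where a floor of 3 UMIs was used. Col9a2 had 163 UMIs at day 7 and 0 at day 3, at least 85.4-fold higher, and Matn4, a matrilin of cartilage and other tissues, 487 and 21. The summed other cartilage genes were 9.87 (8.61 to 11.3) times the day 3 level, against 8.86 (8.52 to 9.21) times in the remaining spots. In the remaining spots of day 7 Ibsp stood at 103 CPM, so the tendon spots, at 99.3 CPM, held no more of it than the remaining spots. In the cartilage spots under the tendon threshold it stood at 1505 CPM.

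Inflammatory and early injury genes were lower at day 7 than at day 3 in the tendon spots. All 12 macrophage genes had ratios below 1 and 10 were at least 2-fold lower, with a list ratio of 0.284 (0.277 to 0.291). Over all genes compared, 7.58% were at least 2-fold lower. Spp1 (osteopontin), made by macrophages after muscle injury as well as by bone cells, had 61.1 against 867 CPM, Chil3, a product of macrophages and neutrophils, 1.76 against 66.5, and Gal, the neuropeptide galanin, 6 against 503 UMIs. Ankrd2 and Csrp3, stretch-responsive muscle genes, had ratios of 0.0731 (0.0523 to 0.0996) and 0.0889 (0.0734 to 0.107). The cell cycle list was at 0.451 (0.418 to 0.487), with 8 of 16 genes at least 2-fold lower. Adult myofibre genes were 1.87 (1.86 to 1.88) times as high at day 7. Outside the tendon spots the sections differed too, with Lyz2, a myeloid gene, at 4159 CPM at day 3 and 907 at day 7. In the remaining spots the macrophage list of day 7 was at 0.251 (0.249 to 0.253) of day 3 and the cell cycle list at 0.286 (0.279 to 0.293). The adult myofibre list was 1.88 times as high there, so none of these differences was particular to the tendon spots.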

How the data were processed

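Sections of tibial muscle were profiled with Visium capture spots, 1 section per time point. The deposited count tables hold raw UMI counts per gene and spot, made by the authors with no normalization. Their headers name Space Ranger 1.2.0, the labels name Cell Ranger 5.0.0, and the build mm10 comes from the submitters' processing notes. No spot positions, deconvolution or doublet caller were used.

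UMIs were summed over each set of spots and divided by the set's total (CPM). A level has an exact Poisson interval and a ratio the exact conditional binomial interval, both at 95%. Genes with at least 10 CPM in either set and 50 UMIs over both were compared, and a ratio past 2-fold was counted. With 1 section per day no p-value was computed. In a ratio, a count of 0 was replaced by a floor of 3 UMIs, and counts above 0 were used as they are.

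The tendon genes, the gene lists and the comparisons were chosen with earlier results of these data known. Named genes are those of 31 lists, and, for each comparison, the 12 highest and 8 lowest ratios among genes with at least 50 CPM in either set, leaving out mitochondrial genes and those of the rule. Some genes that this rule names are not reported here. For other days the top 5% of spots by the same score was taken. Spots with fewer than 2000 UMIs were left out (84 of 3032 at day 7). Shares of spots with a UMI were given as counted and, where stated, after thinning to 2000 UMIs. Spearman correlations came from thinned spots. Alternatives were other score and depth limits, scores without a marker, edgeR TMM factors, a total that leaves out mitochondrial, haemoglobin and myofibre genes, thinned counts and other filters. The computations were tested on simulated data. Promoters came from a RefSeq table on GRCm38.p6, in which 10 of the 14 genes looked up matched. The tools were edgeR 4.0.16 in R 4.3.3, and pandas 2.3.3, SciPy 1.17.1, NumPy 2.4.6 and matplotlib 3.10.9 in Python 3.11.15.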

Additional observations from a re-analysis of the deposited data

Results flagged for a closer look

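Some gene lists differed between tendon spots and remaining spots in opposite directions on different days, which were not tested against each other because each day is 1 section. The cell cycle list was at 0.854 of the remaining spots (0.752 to 0.966) at day 1 and 1.78 at day 7. The adipocyte list was 1.84 times as high (1.72 to 1.97) at day 3 and at 0.461 at day 7. The haemoglobin list had a ratio of 0.343 on day 7, against 1.2 (1.16 to 1.24) on day 0, 1.76 (1.66 to 1.87) on day 1 and 1.78 (1.72 to 1.85) on day 3.

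The 84 spots of day 7 with fewer than 2000 UMIs, which the choice of tendon spots left out, also held marker RNA. They had 45 marker UMIs in 116345, which is 387 CPM (282 to 518), and 44 of the 45 were Thbs4. Of these spots 12 were at or above the score threshold.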

How the results depend on the processing

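The ratio of other tendon genes to the remaining spots, 4.28, stayed above 1 under every alternative run and was 3.52 with the top 10% of spots, 5.06 with the top 2.5%, 2.98 with no spot left out as cartilage, 3.86 without Thbs4 in the score, 3.72 with the reduced total, 3.53 with TMM factors and 3.22 with thinned spots (183 chosen because of ties, 106 of them among the 135). The adult myofibre ratio, 0.616, stayed below 1 and was 0.626, 0.620, 0.637, 0.714, 0.536, 0.508 and 0.719 in that order, 0.612 without Tnmd or without Scx, and 0.667 as a mean over spots. Other cartilage genes, 1.32, were at 1.48 with the top 10%, 1.52 without Thbs4, 1.15 with the reduced total and 1.09 with TMM factors, and fell below 1, at 0.732, with no spot left out as cartilage. Bone genes did so too, at 0.723, and were at 0.968 with TMM factors. T and NK cell genes were at 0.910 after thinning, pericyte genes at 1.00 without Thbs4, and over cartilage spots at 1.01 with either other scaling. Matrix protease genes over stroma spots were at 1.01 with TMM factors. Scaling over cartilage and stroma spots was added after seeing the data.

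The count of genes at least 2-fold higher, 610, was 352 with no spot left out, 310 without Thbs4, 333 with the reduced total, 236 with TMM factors, 220 at 50 CPM in either set and 2030 with no CPM filter. The count of genes at least 2-fold lower, 64, was 39 with the top 10%, 143 with the top 2.5%, 42 without Thbs4, 175 with the reduced total, 204 with TMM factors, 314 after thinning, 16 at 50 CPM and 421 with no CPM filter. The day 7 level of other tendon genes over day 0, day 1 and day 3 was 2.10, 0.964 and 1.34 with TMM factors, and 4.10, 2.98 and 1.87 without Thbs4. It was 2.55 over day 0 and 1.2 over day 1 with the reduced total, and 1.42 over day 0 and 1.82 over day 3 with the day 7 threshold on every day. Where a ratio moved with the scaling the total changed by construction, and for other alternatives the cause was not tested.

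No paired analysis was possible because each time point has 1 section and the shared replicate number 1 pairs nothing. The spread between animals is unknown. Depth limits rare genes, for which a count of 0 allows up to 3 UMIs.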

Other observations

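Other lists were compared as well. Immediate early genes had a summed ratio of 1.60 (1.5 to 1.72), mesenchymal stromal genes one of 1.47 (1.42 to 1.52) and slow myofibre genes one of 0.961 (0.918 to 1.01), against a median of 1.23 over all genes. Skin epithelium genes had 10 UMIs in all the tendon spots. Over cartilage spots the tendon sheath and synovial list had a ratio of 3.55 (3.16 to 3.99), with all 5 genes at least 2-fold higher, and the muscle-tendon junction list one of 2.94 (2.73 to 3.17), with 4 of 6. Regenerating muscle genes had a ratio of 2.82 (2.61 to 3.05) over cartilage spots. With TMM factors each of these ratios stayed on its side of 1.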
